A study of Homo sapiens with 8 samples.

Results

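The average effect of THZ1 over 2 thyroid carcinoma lines is described here: for each gene, the mean of its changes in BCPAP and in CAL-62, each change being THZ1 minus the vehicle DMSO in log2(value + 1). All 8 of the study's 8 libraries enter it, 4 with THZ1 and 4 with DMSO, and it covers the 10698 genes listed for both lines out of 12715 listed for either. BCPAP and CAL-62 are established human lines, and the labels call both anaplastic thyroid carcinoma. The 4 groups were BCPAP with DMSO, BCPAP with THZ1, CAL-62 with DMSO and CAL-62 with THZ1, with 2 libraries each and with THZ1 at 100 nM for 6 h. The media differed, with 10% serum in RPMI for BCPAP and 20% serum in DMEM for CAL-62, and effects of line and of medium cannot be told apart. RNA was selected with oligo(dT) before sequencing. The labels do not say that the replicates were separate cultures. A p-value here sets an effect against the spread of these libraries alone, and the spread between replicates may be technical. In the fit of the average effect the error also holds any difference between the 2 lines' responses, which has no term of its own there.

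THZ1 is a covalent inhibitor of CDK7, and it also reaches the related kinases CDK12 and CDK13. CDK7 with cyclin H and MAT1 forms the kinase module of TFIIH, a general transcription factor, and phosphorylates the tail of RNA polymerase II as the enzyme leaves the promoter. CDK7 also activates other cyclin-dependent kinases, among them those of elongation. When transcription is blocked for hours, short-lived RNAs are lost faster than stable ones, and an RNA-seq value, which is a share of the library, can rise for a stable RNA while its amount per cell does not.

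The deposited values are of RPKM type, that is, reads per gene length and library total, and the error of a change is the standard error (SE) of the fit over all 8 libraries. The libraries held 16681826 to 19988647 reads in listed genes, and a gene of both tables had a median of 453.5 to 809 reads. Each table lists a gene only where its mean over that line's DMSO libraries reached about 1, so a gene silent under DMSO and switched on by THZ1 is outside the tables. Mitochondrially encoded genes took 2.69% to 4.74% of BCPAP reads under DMSO and 3.38% to 5.07% under THZ1. In CAL-62 they took 3.74% to 6.26% and 5.45% to 10.3%. Of 15 thyroid lineage markers, PAX8 and HHEX were listed for both lines and NKX2-1 and FOXE1 for BCPAP only, while TG, TSHR, SLC5A5 and the others were listed for neither. Epithelial markers listed for both lines numbered 5 of 13 and mesenchymal markers 11 of 12. For blood 1 of 13 was listed (CD68), for fibroblasts 1 of 9 (COL1A1) and for endothelium none of 8 for both lines.

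After 6 h of THZ1, the death adaptor FADD and the thyroid factor PAX8 were among the largest falls. Every THZ1 library was below the DMSO libraries of its line, which the ranking of falls required. Of ZNF zinc finger genes 105 of 317 fell, of box C/D small nucleolar RNAs 34 of 103 and of box H/ACA and Cajal body RNAs 16 of 47, where 10.2% of all tested genes fell. JUNB, IER2, the decoy receptor TNFRSF10D and the large RNA polymerase II subunit POLR2A rose. Of 10653 genes whose mean value reached 1, 2426 were called (22.8%) at an adjusted p under 0.05, in limma with line and replicate number as blocks. Higher with THZ1 were 1336 genes (12.5%) and lower were 1090 (10.2%). The rises were small and the falls larger: 27 rises and 297 falls reached 2-fold on this scale. The genes that rose had a median mean value of 44.2, those that fell 5.29, and all tested genes 11.4. All 4 pairs of libraries with the same line and number had the same sign for 1294 of the 1336 rises and 1080 of the 1090 falls. Those genes were called on these same libraries. Among all 10653 tested genes 3133 were higher and 2168 lower in 4 of 4 pairs. In both lines THZ1 and DMSO values did not overlap for 849 of the rises and 835 of the falls, against 13.3% higher and 11.2% lower among all tested genes.

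The count of calls rests on the replicate block and on single libraries. Without the replicate number as a block, 70 genes were called, 8 higher and 62 lower. With any one library left out the count ran from 0 to 4006. It was 0 without the BCPAP THZ1 library 2 (3249 genes at an unadjusted p under 0.05) and 0 without the CAL-62 DMSO library 1 (2958). It was 5 without the CAL-62 DMSO library 2, 6 without the CAL-62 THZ1 library 1 and 312 without the CAL-62 THZ1 library 2. Without the BCPAP DMSO libraries 1 and 2 in turn it was 1429 and 1257, and without the BCPAP THZ1 library 1 it was 4006. Of the 2426 called genes, the 2413 to 2426 that could still be tested all kept their sign in each of these 8 fits. Those genes were chosen in the fit of all libraries, which shares most of its data with each of these fits. The kept sign is therefore close to fixed in advance and is no separate support. The block leaves the estimated changes as they are in this balanced design and alters only their errors.

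The share of rises depends on the scaling. The deposited values centre on a typical gene: over all tested genes the median change was 0.06. Of the calls, 44.9% were lower with the values as deposited, 54.6% with median-of-ratios scaling and 76.8% with upper-quartile scaling. With ribosomal protein genes as the reference 99.4% were lower (15 higher and 2322 lower), and with mitochondrially encoded genes as the reference 99.8% were (12 higher and 5680 lower). Those 2 references moved the median change of all genes to -0.45 and -0.56. The changes below are therefore relative to a typical gene, and no total amount of RNA per cell was measured.

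CDK7 itself did not pass the test. Its values were 20.8 and 18.1 under DMSO and 22.1 and 18.9 under THZ1 in BCPAP, and 11 and 11.5 against 10.4 and 9.62 in CAL-62, with an average change of -0.04 (SE 0.12, limma adjusted p = 0.817). The groups overlap in BCPAP. The average change was -0.30 for CDK12 (SE 0.17, limma adjusted p = 0.198) and -0.11 for CDK13 (SE 0.20, limma adjusted p = 0.687).

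**Figure D1:**
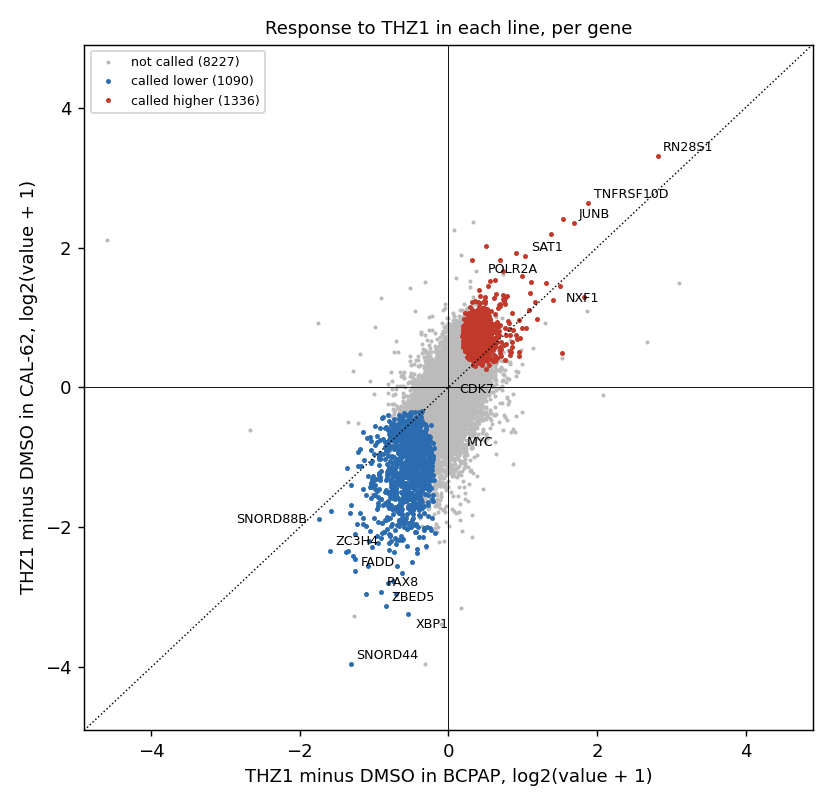
Change with THZ1 of each of the 10653 tested genes in BCPAP (x axis) and in CAL-62 (y axis), both THZ1 minus DMSO in log2(value + 1), with called genes in colour and the dotted line marking equal changes. Most called genes lie between the dotted line and the CAL-62 axis: of the 2426, 2239 had the larger absolute change in CAL-62.

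The response was of about the same sign in both lines and larger in CAL-62. Changes over all tested genes had an SD of 0.34 in BCPAP and 0.66 in CAL-62. For called genes the median absolute change was 0.42 in BCPAP and 0.83 in CAL-62. Across genes, which are not independent replicates, the changes of the lines had a Pearson r of 0.66 and a Spearman rho of 0.67. The difference between the lines' responses passed the test for 0 genes (0.0%) in limma, with 2212 at an unadjusted p under 0.05 and a smallest adjusted p of 0.189, and limma-voom on recovered reads also gave 0 with 2181 unadjusted. With a library left out, this fit matches the rest of that library's line exactly, and its residual error comes from the other line alone. Of these fits only those without a CAL-62 library had calls, and there the error was that of BCPAP. Those calls cannot show how CAL-62 varies.

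The largest falls are described first: the 12 largest of 429 called genes that reached a mean value of 5 and whose groups were apart in both lines. The smallest of the 12 changes was -1.81 (SNORD88B), and limma adjusted p-values ran up to 0.0414. In all 12 the fall was larger in CAL-62. Among these 12 were 4 box C/D small nucleolar RNAs (SNORD44, SNORD81, SNORD49A and SNORD88B), 4 regulators of transcription or RNA (PAX8, XBP1, ZC3H4 and ZBED5), FADD, MOCS3 and the uncharacterised loci LOC100509100 and LOC730755.

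PAX8 is the paired-box transcription factor of the thyroid lineage. In BCPAP it stood at 57 and 82.5 under DMSO and 30.8 and 42.5 under THZ1. In CAL-62 it stood at 91.1 and 117 against 5.20 and 29.8. Every THZ1 library was below both DMSO libraries of its line, and the CAL-62 THZ1 libraries were themselves far apart. The average change was -1.91 (SE 0.45, limma adjusted p = 0.0299). HHEX, a homeobox gene of early thyroid development, went the other way: 10.1 and 12.8 against 18.1 and 30.5 in BCPAP and 22.3 and 53.3 against 72.4 and 54.6 in CAL-62, an average change of 0.92 (SE 0.23, limma adjusted p = 0.0318). Its CAL-62 DMSO library 2 lay just under the lower THZ1 value. The 2 markers of this lineage listed for both lines thus changed in opposite directions.

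XBP1, a transcription factor of the unfolded protein response, stood at 32.9 and 24.8 against 23.4 and 16.1 in BCPAP. In CAL-62 it stood at 34.3 and 83.8 with DMSO and 5.97 and 3.82 with THZ1. The groups do not overlap in either line, but the CAL-62 DMSO libraries differ widely from each other. The average change was -1.89 (SE 0.54, limma adjusted p = 0.0414), made of -0.54 in BCPAP and -3.24 in CAL-62.

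ZC3H4, a zinc finger protein that restrains transcription of non-coding regions, had values of 11.3 and 11.3 with DMSO and 4 and 2.33 with THZ1 in BCPAP. The CAL-62 values were 10.6 and 9.33 against 0.698 and 1.77. DMSO replicates agreed closely in both lines, and the average change was -1.97 (SE 0.24, limma adjusted p = 0.0224). For ZBED5, a domesticated transposon gene with a BED zinc finger, the values were 16.8 and 11.8 against 10.2 and 5.27 in BCPAP and 19 and 16.6 against 1.48 and 0.859 in CAL-62. The BCPAP THZ1 library 1 reached nearly to the lower DMSO library. Its average change was -1.99 (SE 0.42, limma adjusted p = 0.0290).

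FADD couples death receptors such as the TRAIL receptors to caspase-8. It was at 19.9 and 23.3 with DMSO and 8.02 and 8.95 with THZ1 in BCPAP, and at 24 and 27.4 against 3.28 and 3.35 in CAL-62. Replicates lay close together in all 4 groups and the groups were far apart. The average change was -1.94 (SE 0.26, limma adjusted p = 0.0224).

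MOCS3, an intronless gene whose enzyme activates sulfur carriers for molybdenum cofactor and transfer RNA, was at 9.37 and 10.6 against 3.53 and 2.96 in BCPAP and 7.39 and 9.86 against 1.18 and 0.609 in CAL-62. All THZ1 values were below every DMSO value. Its average change was -1.86 (SE 0.23, limma adjusted p = 0.0224). LOC100509100 went from 12.1 and 10.8 to 0.415 and 0.835 in CAL-62 and from 5.13 and 5.61 to 3.31 and 2.53 in BCPAP. LOC730755 went from 309 and 232 to 59.4 and 33.4 in CAL-62 and from 31.3 and 10.9 to 10.5 and 6.48 in BCPAP, where the groups nearly touch.

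**Figure D2:**
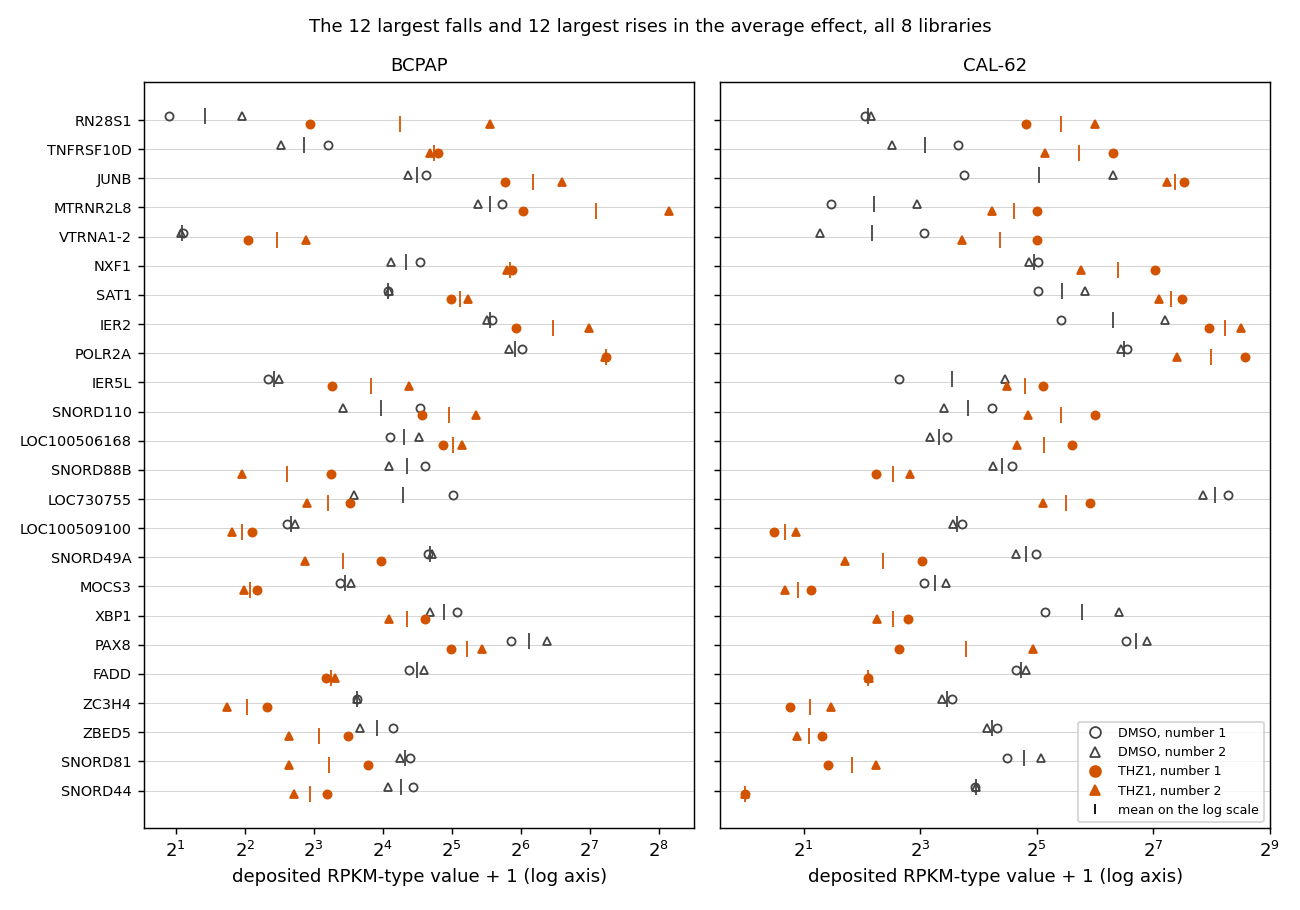
Deposited RPKM-type value plus 1 (x axis, log scale) of the 12 largest falls and 12 largest rises in each of the 8 libraries, BCPAP on the left and CAL-62 on the right. Open symbols are DMSO, filled symbols THZ1, shapes the replicate numbers and bars the mean on the log scale of 2 libraries. Within each line the filled and open symbols of a gene do not overlap, which the choice of genes required.

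The 12 largest rises came from 819 eligible genes. Each rose by at least 1.26, with limma adjusted p-values up to 0.0329, and 10 of the 12 rose more in CAL-62. They include 3 immediate early genes (JUNB, IER2 and IER5L), 2 genes of RNA synthesis and export (POLR2A and NXF1), TNFRSF10D and SAT1. RN28S1, MTRNR2L8, VTRNA1-2, SNORD110 and LOC100506168 make up the rest.

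JUNB, an AP-1 transcription factor of the immediate early class, was at 23.7 and 19.6 with DMSO and 53.5 and 95.6 with THZ1 in BCPAP, and at 12.6 and 78.3 against 183 and 149.8 in CAL-62. The CAL-62 DMSO libraries differ widely and both stay under the THZ1 libraries. The average change was 2.01 (SE 0.42, limma adjusted p = 0.0290). IER2 was at 47.2 and 44.8 against 60.2 and 127 in BCPAP and 41.7 and 147 against 249 and 363 in CAL-62, an average change of 1.42 (SE 0.31, limma adjusted p = 0.0291). IER5L was at 4.06 and 4.66 against 8.65 and 19.9 in BCPAP and 5.22 and 21 against 33.7 and 21.4 in CAL-62, and its CAL-62 groups are separated by less than their spread. In JUNB, IER2 and IER5L the CAL-62 DMSO library 2 was several times above the DMSO library 1.

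TNFRSF10D binds TRAIL without a complete death domain and so acts as a decoy. Its values were 8.19 and 4.74 with DMSO and 26.8 and 24.8 with THZ1 in BCPAP, and 11.6 and 4.75 against 77.9 and 34.4 in CAL-62. Both groups are well apart in both lines. The average change of 2.26 (SE 0.22) had a limma adjusted p of 0.0148, the smallest of any gene.

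POLR2A encodes the large subunit of RNA polymerase II, whose tail CDK7 phosphorylates. It was at 63.9 and 55.8 with DMSO and 150.4 and 148 with THZ1 in BCPAP, and at 92.4 and 86.6 against 382 and 169.8 in CAL-62. The BCPAP THZ1 replicates nearly coincide, whereas the CAL-62 THZ1 libraries differ, and the average change was 1.40 (SE 0.19, limma adjusted p = 0.0224). NXF1, the main export receptor of mRNA, was at 22.3 and 16.5 against 57.6 and 55.1 in BCPAP and 31.5 and 28.4 against 131 and 53 in CAL-62. Its average change of 1.48 (SE 0.19, limma adjusted p = 0.0224) was close to equal in the lines. SAT1, the acetylase that starts polyamine breakdown, was at 15.8 and 16 against 30.9 and 36.6 in BCPAP and 31.7 and 55.8 against 179 and 137 in CAL-62. Its average change was 1.45 (SE 0.23, limma adjusted p = 0.0268).

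Some of the largest rises belong to features whose counts are uncertain. RN28S1, a copy of 28S ribosomal RNA, was at 0.877 and 2.87 with DMSO and 6.69 and 45.8 with THZ1 in BCPAP, and 3.14 and 3.48 against 27.2 and 63.4 in CAL-62, an average change of 3.06 (SE 0.34, limma adjusted p = 0.0224). This RNA comes from many gene copies and has no poly(A) tail that oligo(dT) selection is meant to capture. MTRNR2L8 is a nuclear near-copy of mitochondrial 16S ribosomal RNA, with values of 51.9 and 40.8 against 64.8 and 284 in BCPAP and 1.76 and 6.74 against 31.1 and 17.8 in CAL-62. VTRNA1-2, a short vault RNA made by RNA polymerase III, was at 1.15 and 1.10 against 3.14 and 6.41 in BCPAP and 7.37 and 1.45 against 31.3 and 12.2 in CAL-62. None of these counts can be assigned to 1 gene copy or to full-length RNA with certainty.

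The stretches before the starts of 2 strong rises (JUNB and NXF1) and 2 strong falls (FADD and MOCS3) are printed as examples of the motifs counted below, and were chosen after the values were seen. Each line gives the 250 bases before the RefSeq transcription start in GRCh38.p14, read 5′ to 3′ on the gene's strand. Capitals mark, on either strand, the TATA motif TATAAA, the box CCAAT, the ETS core CCGGAA and the SP1 core GGGCGG. The regions are chr19:12791236-12791485 on the plus strand for JUNB, chr11:62805441-62805690 on the minus strand for NXF1, chr11:70203046-70203295 on the plus strand for FADD and chr20:50958568-50958817 on the plus strand for MOCS3.
JUNB: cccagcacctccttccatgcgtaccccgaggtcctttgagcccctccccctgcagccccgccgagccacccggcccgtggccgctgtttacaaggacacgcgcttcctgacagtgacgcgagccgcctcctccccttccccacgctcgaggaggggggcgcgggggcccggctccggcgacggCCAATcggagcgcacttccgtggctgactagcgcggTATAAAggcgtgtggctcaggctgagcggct
NXF1: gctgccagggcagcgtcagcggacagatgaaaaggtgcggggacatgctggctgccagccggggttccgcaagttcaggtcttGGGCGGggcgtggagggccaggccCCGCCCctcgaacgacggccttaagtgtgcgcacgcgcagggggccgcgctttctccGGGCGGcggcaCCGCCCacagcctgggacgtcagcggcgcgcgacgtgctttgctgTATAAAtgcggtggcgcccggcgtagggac
FADD: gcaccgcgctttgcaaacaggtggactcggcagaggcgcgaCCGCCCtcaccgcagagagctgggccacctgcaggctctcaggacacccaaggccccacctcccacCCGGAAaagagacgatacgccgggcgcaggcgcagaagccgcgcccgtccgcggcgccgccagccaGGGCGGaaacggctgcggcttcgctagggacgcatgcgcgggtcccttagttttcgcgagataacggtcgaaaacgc
MOCS3: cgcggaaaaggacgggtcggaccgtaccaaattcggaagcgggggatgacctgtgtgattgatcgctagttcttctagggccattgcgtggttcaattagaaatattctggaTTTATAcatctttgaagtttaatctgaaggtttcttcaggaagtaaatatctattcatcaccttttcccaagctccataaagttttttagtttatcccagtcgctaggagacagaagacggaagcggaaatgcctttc

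A TATAAA begins 31 bases before the start in JUNB and 30 bases before it in NXF1, and the fall MOCS3 has one on the opposite strand, 138 bases before the start. The FADD stretch has none and holds a CCGGAA, the core bound by ETS factors, 143 bases before the start. Of 8 ranked genes looked at singly, TATAAA was in 2 of 5 rises (not in IER2, POLR2A or SAT1) and 1 of 3 falls (not in FADD or ZC3H4). CCGGAA was in 2 of the rises (IER2 and SAT1) and all 3 falls, counted in windows that run to 50 bases after the start. In MOCS3 and ZC3H4 the match lies after the start, so the MOCS3 stretch above shows none. Promoter windows of 300 bases (from 250 bases before the start to 50 after it) were matched for 7619 of 9003 tested protein-coding genes, or 84.6%. TATAAA occurred in 6.44% of the 1009 matched genes that rose, 3.13% of the 704 that fell, 4.55% of all matched genes and 12% of 27305 RefSeq promoters. CCGGAA occurred in 33.9%, 42.9%, 33.0% and 17.6% of the same sets. GGGCGG, the core bound by SP1, was in 74.7%, 68.8%, 73.0% and 44.6%. CCAAT was in 38.2%, 40.3%, 37.3% and 35.7%. TGACTCA, the AP-1 site, was in 2.58%, 4.40%, 2.70% and 4.92%, and TGACGTCA, the CRE, in 3.27%, 3.41%, 3.53% and 1.98%. Both strands were searched and the motifs do not contain each other. These shares are descriptions, were computed after the values were seen, and a match is not a bound site.

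Small nucleolar RNAs guide modification of ribosomal and other RNAs. Most are cut from introns of host genes, box C/D members carry the short boxes C and D near their ends, and box H/ACA members guide pseudouridylation. The 5 sequences below are shown because they mark the 2 sides of the result: SNORD49A, SNORD27, SNORD88B and SNORD36A fell and SNORD110 rose. They are DNA letters of GENCODE release 29 on GRCh38, 5′ to 3′, with the core of box C (TGATG) near the start and of box D (CTGA) near the end in capitals.
SNORD49A: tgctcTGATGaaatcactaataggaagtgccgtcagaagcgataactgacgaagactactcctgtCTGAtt
SNORD27: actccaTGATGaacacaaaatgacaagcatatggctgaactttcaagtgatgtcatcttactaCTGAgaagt
SNORD88B: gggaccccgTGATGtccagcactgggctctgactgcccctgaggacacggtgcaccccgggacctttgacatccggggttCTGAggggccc
SNORD36A: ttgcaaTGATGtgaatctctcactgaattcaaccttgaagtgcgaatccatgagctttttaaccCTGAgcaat
SNORD110: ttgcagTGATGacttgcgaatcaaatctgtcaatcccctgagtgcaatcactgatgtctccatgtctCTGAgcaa

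SNORD49A lies at chr17:16440036-16440106 (plus strand) within LRRC75A-AS1 and SNORD27 at chr11:62855012-62855083 (minus strand) within SNHG1. SNORD88B lies at chr19:50799032-50799122 (minus strand) within C19orf48, SNORD36A at chr9:133350456-133350528 (plus strand) within RPL7A, and SNORD110 at chr20:2654212-2654286 (plus strand) within NOP56. SNORD49A shares a run of 35 bases with its neighbour SNORD49B, so reads of that pair can be split between them. Reads of a mature small RNA and of an unspliced host intron cannot be told apart in counts per gene, and oligo(dT) selection does not capture RNAs without a poly(A) tail by design.

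SNORD49A had 34 and 37 BCPAP reads under DMSO and 19 and 8 under THZ1, and 47 and 40 against 7 and 3 in CAL-62. As values these are 24.2 and 25.3 against 14.8 and 6.36 in BCPAP and 30.7 and 23.9 against 7.14 and 2.26 in CAL-62, an average change of -1.85 (SE 0.30, limma adjusted p = 0.0268). The groups are apart in both lines. SNORD88B was at 23.4 and 16 against 8.55 and 2.91 in BCPAP and 22.9 and 17.9 against 3.73 and 6.06 in CAL-62, a change of -1.81 (SE 0.25, limma adjusted p = 0.0224) of nearly the same size in both lines. SNORD27, chosen after its values were seen, had 21 and 20 BCPAP reads under DMSO and 8 and 12 under THZ1, and 20 and 19 against 1 and 1 in CAL-62, a change of -1.80 (limma adjusted p = 0.0290). SNORD81 was at 20 and 18.1 against 12.9 and 5.25 in BCPAP and 21.6 and 32.6 against 1.68 and 3.73 in CAL-62.

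SNORD44 had the largest fall on this scale. Its BCPAP values were 20.7 and 15.9 under DMSO and 8.16 and 5.55 under THZ1. In CAL-62 it stood at 14.4 and 14.6 (19 and 21 reads) with DMSO and had 0 reads in both THZ1 libraries, which is at least 4.69-fold lower when 3 reads are allowed to each of these. The average change of -2.63 (SE 0.47, limma adjusted p = 0.0273) depends on the pseudocount of 1 and is not a bound. This bound covers counting error only.

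SNORD110 was the exception among the ranked genes. It had 33 and 15 BCPAP reads under DMSO and 31 and 53 under THZ1, and 29 and 17 against 65 and 39 in CAL-62, values of 22.2 and 9.71 against 22.8 and 39.9 in BCPAP and 17.9 and 9.62 against 62.8 and 27.8 in CAL-62. The BCPAP groups all but touch. Its average change was 1.29 (SE 0.31, limma adjusted p = 0.0302), and its host NOP56, a core protein of box C/D particles, changed by 0.57 (limma adjusted p = 0.0311).

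Over the class, 34 of 103 box C/D RNAs fell and 2 rose, with a median change of -0.67. Of 47 box H/ACA and Cajal body RNAs 16 fell and none rose, with a median of -0.56. Those shares stand against 10.2% lower and 12.5% higher among all tested genes, and the medians against 0.06. The lowest H/ACA member called was SNORA24, at -1.43. Both medians stayed negative under every setting tried, from -1.17 to -0.33 and from -1.05 to -0.27. The RNAs of this class are short and had few reads: those among the 12 largest falls had as few as 16 in a DMSO library.

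Hosts and the RNAs inside them differed. GENCODE placed 108 of the 150 tested small nucleolar and Cajal body RNAs inside 56 tested hosts, and 95 of the 108 had a lower change than their host. Both counts of 108 and 56 include SCARNA9, which was matched to itself as host and is no true pair. The RNAs had a median change of -0.59 and the hosts, each counted once, 0.52. Of the 56 hosts 17 rose and 5 fell. Of all tested genes 12.5% rose and 10.2% fell, and in the highest of 5 classes of mean value 38.3% of protein-coding genes rose. Among 32 RNAs that fell and had a tested host, the host fell in 10, rose in 6 and did not pass the test in the others. RNAs of 1 host share its transcript and are not independent.

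RPL7A, a ribosomal protein gene, shows the contrast within 1 locus. It was at 322 and 372 with DMSO and 354 and 540.4 with THZ1 in BCPAP, and at 417 and 495 against 798 and 971 in CAL-62, an average change of 0.64 (SE 0.18, limma adjusted p = 0.0392). Of its THZ1 libraries, BCPAP library 1 lay between the DMSO values. SNORD36A in its intron was at 14.0 and 13.5 against 8.45 and 8.62 in BCPAP and 19.6 and 18.0 against 16.1 and 8.17 in CAL-62. Its average change was -0.65 (SE 0.17, limma adjusted p = 0.0344), and its CAL-62 THZ1 library 1 lay just under DMSO. These values rest on 40 and 40 reads against 22 and 22 in BCPAP and 61 and 61 against 32 and 22 in CAL-62, in libraries of unequal depth. SNORD36B and SNORD36C in the same gene also fell, by 1.49 and 1.5 on the log2 scale, on 0 to 15 and 0 to 21 reads per library. With ribosomal protein genes or mitochondrially encoded genes as the reference, the ribosomal protein list as a whole sits near 0 or below, as given below.

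**Figure D3:**
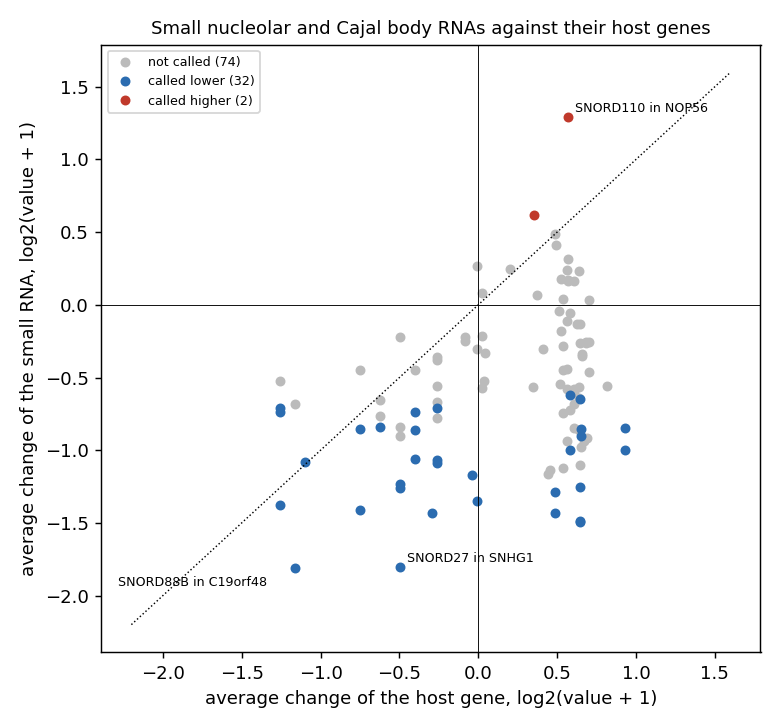
Average change of 108 small nucleolar and Cajal body RNAs (y axis) against that of the tested gene that holds them (x axis), both THZ1 minus DMSO in log2(value + 1), with called RNAs in colour and the dotted line marking equal changes. Points under the dotted line, 95 of the 108, are RNAs with a lower change than their host. SCARNA9, matched to itself as host, lies on the dotted line.

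Non-coding host genes as a list had 3 falls and 1 rise among 12. Falls were 25% and rises 8.33% of that list, against 10.2% and 12.5% of all tested genes. SNHG12 was at 24.5 and 25 against 12.1 and 15.3 in BCPAP and 10.2 and 13.8 against 3.14 and 2.82 in CAL-62, an average change of -1.26 (SE 0.20, limma adjusted p = 0.0268). SNHG9 rose, from 4.12 and 6.46 to 7.59 and 11.9 in BCPAP and from 5.97 and 10.2 to 19.9 and 18.6 in CAL-62, by 0.98 on average (SE 0.17, limma adjusted p = 0.0268).

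The share of falls was alike in the zinc finger and small nucleolar RNA lists: 33.1% for ZNF genes, 33.3% for other zinc finger genes, 33.0% for box C/D and 34.0% for box H/ACA and Cajal body RNAs. In the lowest of 5 classes of mean value 19.3% of protein-coding genes fell and 1.67% rose. In the next class 12.6% fell and 3.17% rose. Genes named ZNF, mostly sequence-specific repressors with KRAB domains and short-lived RNAs, had 105 falls and 0 rises among 317 tested, where 10.2% of all tested genes fell. The median was -0.50 (-0.15 in BCPAP and -0.83 in CAL-62; -0.02 in the BCPAP pair 1), and it stayed between -0.97 and -0.21 under every setting tried. ZNF187 was at 4.29 and 4.21 against 2.06 and 1.96 in BCPAP and 7.81 and 6.42 against 0.694 and 0.778 in CAL-62, an average change of -1.51 (SE 0.27, limma adjusted p = 0.0277). The other BTB, SCAN and ZFP zinc finger genes had 17 falls and 1 rise among 51, with a median of -0.52 (0.03 in the BCPAP pair 1). ZFP62 fell by 1.36 on the log2 scale (SE 0.25, limma adjusted p = 0.0277). ZBTB34 was the rise, at 2.21 and 2.04 against 5.29 and 6.75 in BCPAP and 1.96 and 2.69 against 14.6 and 2.84 in CAL-62, and its CAL-62 THZ1 library 2 lay just above DMSO.

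Other lists of transcriptional regulators had fewer calls. Falls were 10.5% of homeobox, 16.7% of circadian clock and 4.76% of chromatin genes, against 10.2% of all tested genes. Homeobox genes had 2 falls, with TGIF2 at -1.24, and 1 rise (HMBOX1, 0.72) among 19, with a median of -0.28 that was -0.02 without the CAL-62 THZ1 library 2 or the CAL-62 DMSO library 2. Circadian clock genes had 3 falls (TEF -0.95, BHLHE41 and PER3) and 1 rise (CRY1, 0.70) among 18, with a median of -0.29 that was -0.15 without the CAL-62 DMSO library 2 and -0.16 without the CAL-62 THZ1 library 2. Of 63 chromatin modifiers 5 rose, among them HDAC1 (0.73), and 3 fell, with NSD1 at -0.73. The called members of short lists beyond the top one in each direction were named after their values were seen.

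Of the machinery that THZ1 acts on, the TFIIH and CDK-activating kinase list had 1 rise and 1 fall among 8. Cyclin H (CCNH), the partner of CDK7, was at 30.7 and 23.5 against 40.9 and 36.5 in BCPAP and 26.1 and 20.7 against 48.1 and 26.4 in CAL-62, an average change of 0.55 (limma adjusted p = 0.0305) that turned to -0.02 with ribosomal protein genes as the reference. GTF2H1, a core subunit of TFIIH, fell, from 17.5 and 15.6 to 13 and 11.1 in BCPAP and from 21.1 and 20.3 to 9.58 and 12.1 in CAL-62, with an average change of -0.65 (limma adjusted p = 0.0293). Neither gene's groups overlap in either line. Rises and falls were each 12.5% of that list, against 12.5% and 10.2% of all tested genes.

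Among elongation kinases and pause release factors, 1 of 18 rose and 1 fell. Both belong to the 7SK particle that holds the elongation kinase P-TEFb inactive: HEXIM1, its inhibitor, changed by 0.62 (limma adjusted p = 0.0313) and MEPCE, which caps the 7SK RNA, by -1.13 (limma adjusted p = 0.0477). MEPCE moved in CAL-62 (48.8 and 46.1 to 10.9 and 9.89), while its BCPAP groups overlap (22 and 18.5 against 20.8 and 15.1). Mediator, which bridges enhancer factors and polymerase, had 6 falls and 0 rises among 32: MED9, MED22, MED7, MED8, MED29 and MED11, from -1.14 to -0.53. The other 26 did not pass the test. Falls were 18.75% of Mediator genes, against 10.2% of all tested genes. The Mediator median of 0.06 was that of all tested genes, 0.06. General transcription factors had 3 rises (GTF2B 0.78, TAF3 0.65 and TAF9 0.45) and 2 falls (GTF2E1 -1.11 and TAF8 -0.70) among 23.

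RNA polymerase II subunits rose in 6 of 12 and fell in none: POLR2A, POLR2F, POLR2I, POLR2K, POLR2E and POLR2C, by 1.40, 0.67, 0.62, 0.55, 0.54 and 0.40. That share of 50% stands against 12.5% of all tested genes. In the highest of 5 classes of mean value 38.3% of protein-coding genes rose. The list's median of 0.52 turned to -0.06 with ribosomal protein genes as the reference and to -0.20 with mitochondrially encoded genes. It was 0.35 to 0.61 above the median of all genes under every setting tried. The 6 rises were 4 with median-of-ratios and 3 with upper-quartile scaling. POLR2D changed by -0.41 and did not pass the test (limma adjusted p = 0.0715).

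Immediate early genes, which respond within minutes and have short-lived RNAs, did not move as 1 group. Their shares, 8.82% higher and 5.88% lower, were below the 12.5% and 10.2% of all tested genes. Of 34 tested, 3 rose (JUNB, IER2 and IER5L) and 2 fell (KLF2 and FOSL1), with a median of 0.02 that ran from -0.23 without the CAL-62 DMSO library 1 to 0.25 without the CAL-62 DMSO library 2. KLF2 was at 23.6 and 29.7 against 12 and 18.1 in BCPAP and 23.3 and 42.5 against 12.6 and 6.14 in CAL-62, an average change of -1.26 (SE 0.30, limma adjusted p = 0.0299). DUSP1, with the lowest change of the list at -1.44, did not pass the test (limma adjusted p = 0.0833). The list's median per pair was 0.16 and 0.27 in the BCPAP pairs, 0.56 in the CAL-62 pair 1 and -1.29 in the CAL-62 pair 2. MYC was at 21.7 and 19.3 against 23.9 and 22.6 in BCPAP and 48.1 and 161 against 83.6 and 25.5 in CAL-62, so the CAL-62 DMSO libraries enclose a THZ1 library, and the average change of -0.37 did not pass the test (SE 0.46, limma adjusted p = 0.561).

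Signalling outputs gave few calls. Falls were 9.09% of the ERK list, 4.55% of NF-kB, 15% of YAP and TEAD and 9.09% of interferon genes. Of all tested genes 10.2% fell. The TGF-beta list had 5.56% higher, against 12.5% of all tested genes. ERK pathway output had 2 falls and 0 rises among 22 (median -0.27), with SPRED3 at -0.74. NF-kB genes had 1 fall, TRAF2 at -0.81, among 22 (median -0.33). YAP and TEAD targets had 3 falls among 20 (median -0.06), led by ANKRD1, which went from 17.1 and 21.5 to 8.54 and 8.81 in BCPAP and from 14.5 and 12.3 to 7.41 and 2.38 in CAL-62 (average -1.24, SE 0.25, limma adjusted p = 0.0290). TGF-beta response genes had 1 rise, TGFB1 at 0.57, among 18 (median -0.25). Without the CAL-62 DMSO library 2 the medians of the ERK, YAP, TGF-beta and NF-kB lists were 0.04, 0.09, 0.03 and -0.03, and without the CAL-62 THZ1 library 2 they were -0.02, 0.09, -0.04 and -0.08. Receptor tyrosine kinases had no call among 11, and interferon response genes 2 falls among 22, with IFIT5 at -1.05.

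In the death receptor pathway TNFRSF10D and FADD, given above, moved apart. Of 20 TNF and TRAIL receptors, adaptors and caspases 4 fell and 2 rose, with a median of -0.32 that was -0.20 without the CAL-62 DMSO library 2. Falls were 20% and rises 10% of that list, against 10.2% and 12.5% of all tested genes. The other falls were TNFRSF1A, TNFRSF12A and RIPK1, by 1.41, 0.99 and 0.82 on the log2 scale, and the other rise was cytochrome c (CYCS, 0.58). Of 12 BCL2 family genes BCL2L11, which encodes the pro-apoptotic BIM, rose by 0.67 (limma adjusted p = 0.0365) and BCL2L13 changed by -0.46. Among 23 p53 targets 1 rose (FDXR, 0.52) and 2 fell, AEN at -0.96 among them. Rises and falls were each 8.33% of the BCL2 list, and 4.35% and 8.70% of the p53 list. Of all tested genes 12.5% rose and 10.2% fell.

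Lists of stress response genes differed in their calls. In the integrated stress response 1 of 32 rose, NARS at 0.36, and 1 fell. The fall was DDIT3 (CHOP), from 8.06 and 5.81 to 4.79 and 2.78 in BCPAP and from 8.89 and 47.3 to 2.15 and 2.27 in CAL-62 (average -1.76, SE 0.54, limma adjusted p = 0.0479). PPP1R15A changed by -0.92 and did not pass the test (limma adjusted p = 0.0877). In DDIT3, PPP1R15A and MYC the CAL-62 DMSO library 2 was the highest of all 8. In the unfolded protein response of the ER 6 of 22 rose (PDIA3, PDIA6, DNAJC3, CRELD2, SEC61B and ERO1L, 0.49 to 0.77), while XBP1 fell. Heat shock proteins and chaperones had 10 rises and 0 falls among 26, of which 8 are subunits of the CCT chaperonin (0.40 to 0.61). With median-of-ratios scaling 4 of these rises were left and with upper-quartile scaling 2. HSPA1B, at 1.04, has the near-identical copy HSPA1A and is uncertain. That list's median of 0.43 turned to -0.14 with ribosomal protein genes and to -0.28 with mitochondrially encoded genes as the reference. Rises were 27.3% of the unfolded protein response list and 38.5% of the heat shock list, against 12.5% of all tested genes. Rises and falls were each 3.1% of the integrated stress response list, where 10.2% of all tested genes fell. In the highest of 5 classes of mean value 38.3% of protein-coding genes rose, near the heat shock share.

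Polyamine genes had 4 rises among 12: SAT1, OAZ1, SRM and ODC1, by 1.45, 0.80, 0.55 and 0.50. NRF2 targets had 8 rises among 19, with PRDX1, TXN and NQO1 at 0.78, 0.76 and 0.74, and KEAP1, the inhibitor of NRF2, changed by -0.58. With upper-quartile scaling 2 polyamine genes and 4 NRF2 targets rose. The medians of these lists, 0.47 and 0.48, turned to -0.12 and -0.08 with ribosomal protein genes as the reference. Their shares of rises, 33.3% and 42.1%, stand against 12.5% of all tested genes. In the highest of 5 classes of mean value 38.3% of protein-coding genes rose.

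Cell cycle and repair genes were mixed. DNA repair had 13 falls and 5 rises among 56, with a median of -0.18 that stayed negative under every setting tried. Falls were 23.2% and rises 8.93% of that list, against 10.2% and 12.5% of all tested genes. In the lowest of 5 classes of mean value 19.3% of protein-coding genes fell. The falls were led by RAD52, FANCF, XRCC2 and SLX4 (-1.24 to -1.07), of homologous recombination and the Fanconi pathway, and included BRCA1 (-0.66) and PALB2 (-0.90). The rises included XRCC5 (0.56), XRCC6 (0.59) and PRKDC (0.44), which together form the DNA-dependent protein kinase. RAD52 was at 2.61 and 2.23 against 1.41 and 0.633 in BCPAP and 6.43 and 4.56 against 0.677 and 1.32 in CAL-62 (SE 0.24, limma adjusted p = 0.0290). With median-of-ratios or upper-quartile scaling none of the 5 rises was called and 13 falls were, and XRCC6 reversed with mitochondrially encoded genes as the reference.

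DNA replication genes had 6 falls and 4 rises among 45, and 7 falls and no rise with upper-quartile scaling. The shares, 13.3% lower and 8.89% higher, are near the 10.2% and 12.5% of all tested genes. GINS1, a subunit of the replicative helicase, went from 13.4 and 10.8 to 6.30 and 3.11 in BCPAP and from 22.7 and 18.8 to 3.04 and 5.41 in CAL-62, an average change of -1.67 (SE 0.26, limma adjusted p = 0.0268), while GINS2 of the same complex changed by 0.41 and thymidylate synthase (TYMS) by 0.54. G2/M and mitosis genes had 6 falls and 1 rise among 40: CCNF (-1.13), PLK4, CDC25B, CENPA, ESPL1 and CENPI fell and cyclin B2 (CCNB2, 0.45) rose. G1 cyclins and kinases had 1 fall (E2F5, -1.14) and 1 rise (CDKN2D, 0.60) among 21. Falls were 15% of the G2/M list and 4.76% of the G1 list, against 10.2% of all tested genes. Within the MYC, MAX and MXD network of 10 genes, MXD1, an antagonist of MYC, rose by 1.08 and MLX changed by -0.72. Rises and falls were each 10% of that network.

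Rises were frequent among lists of abundant housekeeping RNAs. Nuclear genes of the respiratory chain and ATP synthase had 50 rises and 1 fall among 79, cytosolic ribosomal proteins 38 and 0 among 83, and the proteasome 22 and 1 among 43. Splicing factors had 17 rises and 1 fall among 48, translation factors 16 and 1 among 61, mitochondrial ribosomal proteins 14 and 1 among 75, and glycolysis 5 and 0 among 19. These counts depend on the scaling: in the same order the rises were 41, 15, 19, 5, 13, 5 and 3 with median-of-ratios scaling and 23, 7, 10, 0, 6, 1 and 0 with upper-quartile scaling. The shares of rises, 63.3%, 45.8%, 51.2%, 35.4%, 26.2%, 18.7% and 26.3%, stand against 12.5% of all tested genes, and against 38.3% and 15.7% of protein-coding genes in the highest and the next of 5 classes of mean value. Splicing factors, translation factors, mitochondrial ribosomal proteins and glycolysis are below the share of that highest class. The medians were 0.60, 0.64, 0.48, 0.36, 0.34, 0.25 and 0.58 in that order. Scaled to ribosomal protein genes the medians became 0.02, 0.05, -0.10, -0.22, -0.22, -0.33 and -0.01, and scaled to the mitochondrial genes -0.11, -0.09, -0.24, -0.36, -0.35, -0.46 and -0.15. Relative to the median of all genes they stayed above it under every setting tried, by 0.41 to 0.70 for the respiratory chain and 0.46 to 0.75 for ribosomal proteins.

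NDUFS6, a complex I subunit, was at 97.2 and 129 against 115 and 213 in BCPAP and 88.7 and 121 against 204 and 255 in CAL-62, an average change of 0.81 (SE 0.17, limma adjusted p = 0.0291). The CAL-62 groups are apart and the BCPAP groups overlap. RPSA, a small-subunit ribosomal protein, was at 701 and 329.9 against 723 and 843 in BCPAP and 371 and 241 against 724 and 617 in CAL-62, an average change of 0.93 (SE 0.23, limma adjusted p = 0.0315). PSMD2, of the proteasome cap, was at 169 and 192 against 209 and 285 in BCPAP and 369 and 401 against 740.3 and 733 in CAL-62 (0.69, SE 0.16, limma adjusted p = 0.0296). The top rises of the other lists were SNRPD2 (0.67), EIF2C3 (0.72), MRPL21 (0.57) and GPI (0.70). Exceptions within these lists were NDUFV3 (-0.60), PSMG3 (-0.46), MRPS16 (-0.37), EIF4A2 (-0.40) and SRSF3 (-0.67), which fell. The 13 mitochondrially encoded genes had a median of 0.74, and 2 (ND2 and ND3) passed the test. All 13 were higher in 4 of 4 pairs, as were 3133 of all 10653 tested genes. With ribosomal protein genes as the reference that median was 0.14.

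The remaining lists had medians from 0.03 to 0.34, all of them below 0 with mitochondrially encoded genes as the reference. Their shares of rises ran from 6.67% (nonsense-mediated decay) to 33.3% (histones), against 12.5% of all tested genes. Ribosome biogenesis had 6 rises, with fibrillarin (FBL) at 0.70, and 1 fall, RRS1 at -1.01, among 39. Nuclear-encoded aminoacyl-tRNA synthetases had 4 and 2 among 33, with QARS at 0.57 and PARS2 at -1.19. Histones had 5 and 1 among 15 (HIST1H4C 0.99 and H1F0 -0.64), hypoxia response 3 and 0 among 15 with NDRG1 at 0.69, and cholesterol synthesis 2 and 0 among 25 with MVD at 0.49. HIST1H4C rests on few reads, 3 and 22 against 4 and 41 in BCPAP and 4 and 35 against 18 and 81 in CAL-62. Its groups overlap in both lines. Nonsense-mediated decay had 1 rise (EIF4A3, 0.53) and 1 fall among 15. That fall was SMG9, from 29.1 and 28.4 to 15.4 and 16 in BCPAP and from 31.1 and 28.6 to 5.70 and 17.7 in CAL-62, an average change of -1.15 (SE 0.27, limma adjusted p = 0.0299). Epithelial markers had 1 rise (KRT8, 0.73) among 5 and mesenchymal markers 2 among 11, with SNAI1 at 1.20. Neither list moved 1 way: the change was negative for 2 epithelial and 4 mesenchymal markers. The lowest were CLDN1 at -0.64 and SNAI2 at -0.97, and no marker of these 2 lists was called lower.

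**Figure D4:**
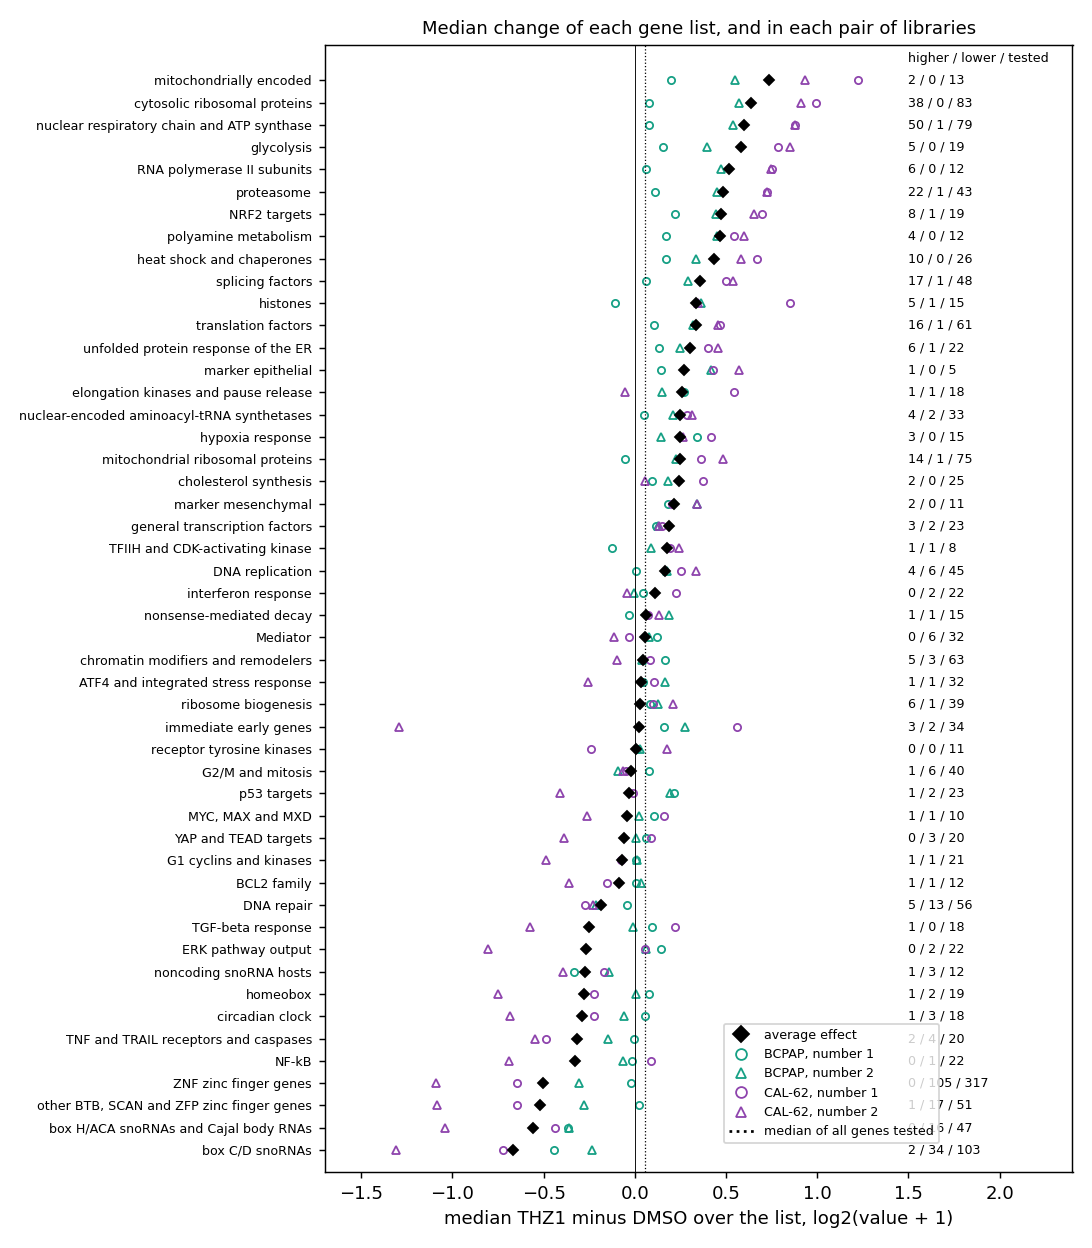
Median change with THZ1, THZ1 minus DMSO in log2(value + 1), over the tested members of each gene list with at least 5 (x axis), for the average effect (diamonds) and for each pair of libraries with the same line and number (open symbols), with the numbers called higher, called lower and tested at the right. Zinc finger genes and small nucleolar RNAs lie lowest, and mitochondrially encoded, ribosomal protein and respiratory chain genes highest, relative to the dotted median of all genes tested (0.06).

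Genes without introns fell more often than others. Of the tested genes 87.5% were matched to GENCODE 29 (90.7% of the rises and 82.4% of the falls), 9003 of them protein-coding. Of 161 protein-coding genes with 1 exon, 68 fell (42.2%) and 13 rose, against 9.30% that fell among all 9003. The share that fell dropped with exon number, through 18.7% for 2 to 3 exons, 11.5% for 4 to 6, 8.58% for 7 to 10 and 6.17% for 11 to 20, to 3.5% over 20. The median change of single-exon genes was -0.48 in the average effect, and -0.25, -0.25, -0.44 and -0.68 in the 4 pairs. It stayed negative under every setting tried, between -1.01 and -0.25. Without genes of a zinc finger name it was -0.47 over 156.

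Low genes also fell more often, so shares were compared within classes of mean value. That mean is over all 8 libraries, THZ1 included, so a fall itself moves a gene towards a lower class and a rise towards a higher one. In the lowest of 5 equal classes of mean value 19.3% of genes fell, and in the highest 1.06% fell and 38.3% rose. Within the lowest class 48.9% of 45 single-exon genes fell against 18.5% of the others. Within the middle class it was 52.0% of 25 against 8.11%, and within the highest 19.0% of 21 against 0.843%. Counted length did not follow the falls in the same way: the shortest of 5 equal length classes had a median change of 0.31 and the longest 0.01. These properties were examined after the values were seen and are given as descriptions.

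Named single-exon genes show both directions. HPS6, of lysosome-related organelles, was at 9.93 and 13.8 against 5.32 and 5.91 in BCPAP and 9.28 and 15.7 against 1.90 and 1.72 in CAL-62. TIGD5, a transposon-derived gene, was at 3.35 and 4.73 against 0.802 and 1.36 in BCPAP and 6.94 and 16.4 against 0.991 and 1.46 in CAL-62. PRMT6, an arginine methyltransferase, was at 15.8 and 14.9 against 7.82 and 6.52 in BCPAP and 5.91 and 5.41 against 1.31 and 1.27 in CAL-62. In all 3 the groups are apart in both lines, with average changes of -1.58, -1.84 and -1.27. MOCS3 above is another. Of the 13 that rose, JUNB, IER2, IER5L and HEXIM1 are transcription-linked regulators, while EIF5AL1, NACA2, PABPC3, HNRNPA1L2 and PGAM4 are intronless copies of abundant genes and may share reads with them, so their values are uncertain.

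**Figure D5:**
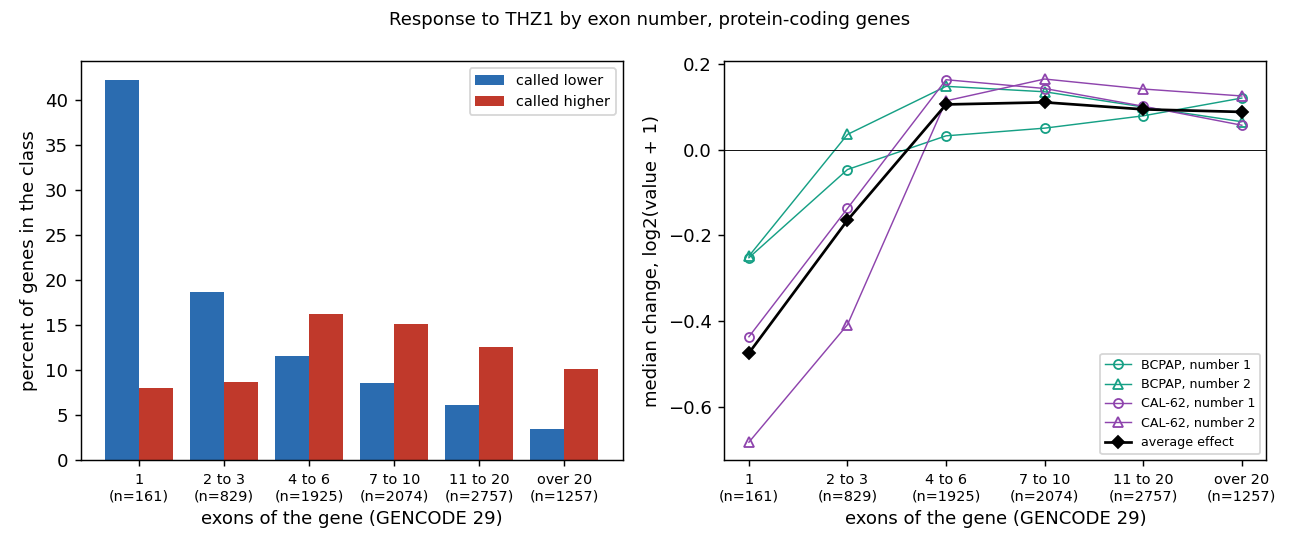
Left: percent of tested protein-coding genes called lower or higher with THZ1 (y axis) by number of exons in GENCODE 29 (x axis, number of genes in brackets). Right: median change, THZ1 minus DMSO in log2(value + 1), of the same classes in the average effect and in each of the 4 pairs. Genes with 1 exon had the highest share of falls, 42.2%, and the lowest median in every pair.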

How the data were processed

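Poly(A)-selected RNA of 8 libraries was measured. The authors deposited 1 table per line with an RPKM-type value per gene; the unit was inferred from the values, and per the submitters' processing notes Bowtie2, DESeq2 and hg19 were named. For gene annotation and strand, nothing is given in the sources used here. Whole reads could be recovered from the deposited values for 12715 of 12715 genes (100% within 0.02 reads); limma-voom on them called 2386 genes. Library totals behind the deposited values lay within 2.22% of proportional to size factors and up to 19.5% from the sum of reads.

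Genes of both tables with a mean value of at least 1 were fitted in limma 3.58.1 (R 4.3.3) (trend = TRUE) on log2(value + 1), with line, replicate number and treatment as terms and 4 residual degrees of freedom. A difference between the lines' responses has no term in that fit and enters its residual error. P-values were adjusted by Benjamini-Hochberg over all 10653 genes, and called means an adjusted p under 0.05. The script was tested on simulated data. Same-numbered libraries deviated together: the correlation of their deviations from the group means was 0.78 in BCPAP, 0.46 in CAL-62, 0.46 across the lines' DMSO libraries and 0.52 across their THZ1 libraries. The shared source of a number is not stated. Replicates differed by far more than sampling noise (66.5 to 119.7 times, as chi-square per degree of freedom).

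Named were the 12 largest called falls and the 12 largest called rises of genes that reached a mean value of 5 and did not overlap within a line, the top called member in each direction of 53 lists, and CDK7, CDK12, CDK13, MYC, PPP1R15A, SMG9, KLF2, XBP1 and PAX8. Other names were chosen after their values were seen. The members and lists were chosen with earlier results of these data known. Gene models came from GENCODE 29 and promoters from RefSeq. Alternatives covered the block, pseudocount, filter, scaling, test and leaving out each library.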

Additional observations from a re-analysis of the deposited data

How the results depend on the processing

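The 2426 calls of the average effect became 70 with no replicate block and 4317 with the 4 group means and a replicate block within each line. With line-by-replicate pairs as the block they were 2065. Leaving out 1 library gave 0 to 4006 calls, and for the difference between lines 0 to 2714. With mitochondrially encoded genes as the reference 5692 were called. For the difference between lines, 1 gene was called with a pseudocount of 0.1, 3433 with ribosomal protein genes and 1740 with mitochondrially encoded genes as the reference. A mean value of at least 5 gave 1915 calls, 30.9% of them lower. The other settings, from 1808 to 2461 calls, stayed within 1.5 times. With no replicate block the difference had 0 calls (580 unadjusted). Of 96 called named genes 13 stayed called with no replicate block, and leaving out each library kept the call in 254 of 768 cases with no change of sign. The named genes were chosen in the fit of all libraries, so the kept sign is no separate support. With ribosomal protein genes as the reference the sign turned for CCNH (-0.017), TGFB1 (-0.0162), TYMS (-0.035), CCNB2 (-0.13), FDXR (-0.00284), NARS (-0.22), EIF4A3 (-0.0572), MVD (-0.0762), CD68 (-0.0415), MRPL21 (-0.017) and QARS (-0.0125). With mitochondrially encoded genes it turned for CCNH (-0.153), HEXIM1 (-0.0788), TGFB1 (-0.154), CDKN2D (-0.0618), TYMS (-0.171), CCNB2 (-0.268), XRCC6 (-0.136), FDXR (-0.104), NARS (-0.357), EIF4A3 (-0.194), SNRPD2 (-0.0529), FBL (-0.0324), PSMD2 (-0.0435), GPI (-0.0217), NDRG1 (-0.0104), MVD (-0.203), KRT8 (-0.000343), CD68 (-0.173), MRPL21 (-0.154) and QARS (-0.15). These references lower the median of all genes (to -0.45 and -0.56), and the cause of the other changes was not tested. Depth limits the small nucleolar RNAs, several of which had under 10 reads in a THZ1 library.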
